A study of Mus musculus with 13 samples.

Results

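Heparan sulfate proteoglycans are core proteins that carry long heparan sulfate chains, and the extracellular sulfatases Sulf1 and Sulf2 trim the sulfate pattern of those chains. Here 10 genes of this system were followed: the syndecans Sdc1, Sdc2, Sdc3 and Sdc4, the glypicans Gpc1, Gpc3, Gpc4 and Gpc6, and the sulfatases Sulf1 and Sulf2. They were chosen by name, with earlier results of these data known, from the 57010 genes listed for each library. Shares and medians of members and lists set against all genes are therefore descriptions. All 10 of the 10 passed the filter on low counts, which kept 15034 genes. RNA was sequenced from primary wild-type (WT) mouse embryonic fibroblasts (MEFs) of mice 4, 5 and 6 in each of 4 groups. The groups were control MEFs without etoposide, untreated senescent MEFs, and senescent MEFs that received Fucoidan-FV, with doses of 100 and 300 μg/mL. Per the study's methods, senescence was induced with etoposide, a topoisomerase inhibitor that breaks DNA, used at 2 μM during 24 h, after which the cells were kept for another 5 days, and Fucoidan-FV, which is fucoidan from the alga Fucus vesiculosus, was present for the last 12 h before RNA extraction. All cells were wild type and were grown at 3% oxygen, and the strain is not given in the sources used here. For control mouse 5 the libraries 5(1) and 5(2) were summed, so n = 3 mice in every group. The embryos behind 1 mouse number are not described in the labels, so p-values measure the spread between these numbered cultures.

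Heparan sulfate chains at the cell surface bind growth factors, Wnt proteins, chemokines and matrix proteins, and present them to their receptors. Syndecans span the plasma membrane and are shed by metalloproteinases, whereas glypicans are tethered to the outer leaflet by a GPI anchor and modulate Wnt, Hedgehog, FGF and BMP signalling. The Sulfs are secreted enzymes that remove sulfate groups from the 6-O position of glucosamine within the chain, which changes what the chain can bind, and fucoidan itself is a sulfated polysaccharide like the chains of these proteins.

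The positions of the members are given in the mouse genome GRCm39, the build to which the authors aligned. Sulf2 (ENSMUSG00000006800) lies at chr2:165915009-165998118 on the minus strand, and Gpc3 (ENSMUSG00000055653) at chrX:51361303-51703137, also on the minus strand. Gpc4 (ENSMUSG00000031119) lies on the same strand of that chromosome at chrX:51139255-51254262. Sulf1 (ENSMUSG00000016918) lies at chr1:12762501-12931416 on the plus strand, and Gpc6 (ENSMUSG00000058571), which spans 1054.2 kb, at chr14:117162727-118216940 on the plus strand. Gpc1 (ENSMUSG00000034220) lies at chr1:92759062-92792113 on the plus strand. The syndecans are Sdc1 (ENSMUSG00000020592) at chr12:8820854-8843725, Sdc2 (ENSMUSG00000022261) at chr15:32920699-33035213 and Sdc3 (ENSMUSG00000025743) at chr4:130519826-130556217, all on the plus strand, and Sdc4 (ENSMUSG00000017009) at chr2:164266025-164285807 on the minus strand. Sulf2 and Gpc3 were the only members called differentially expressed, in the fit without covariates described below, between senescent and control MEFs or between a Fucoidan-FV dose and untreated senescent MEFs, and the 250 bases upstream of their annotated gene starts are therefore shown, 5′ to 3′ on the gene's strand. Neither window overlaps an annotated exon. Capitals mark the motifs found on either strand among the GC box (GGGCGG), the TATA box (TATAAA), the CCAAT box (CCAAT), the AP-1 site (TGANTCA), the E-box (CACGTG) and the CRE (TGACGTCA).
Sulf2, chr2:165998119-165998368, minus strand: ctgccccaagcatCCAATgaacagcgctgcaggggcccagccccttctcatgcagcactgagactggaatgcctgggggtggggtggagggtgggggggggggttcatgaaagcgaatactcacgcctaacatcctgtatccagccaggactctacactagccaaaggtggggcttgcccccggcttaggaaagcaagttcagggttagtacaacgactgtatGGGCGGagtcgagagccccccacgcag
Gpc3, chrX:51703138-51703387, minus strand: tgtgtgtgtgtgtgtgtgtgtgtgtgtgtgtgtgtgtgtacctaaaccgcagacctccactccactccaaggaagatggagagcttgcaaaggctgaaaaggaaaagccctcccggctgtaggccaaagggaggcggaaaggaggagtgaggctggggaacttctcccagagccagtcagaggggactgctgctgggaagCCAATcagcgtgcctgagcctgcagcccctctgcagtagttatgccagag
The Sulf2 window held 1 GC box and 1 CCAAT box, with 8 CpG dinucleotides and 60.4% G+C. The Gpc3 window held 1 CCAAT box, with 4 CpG dinucleotides and 57.2% G+C. Over the 14995 tested genes with such a window, a GC box was present in 38.4%, a TATA box in 9.14%, a CCAAT box in 34.8%, an AP-1 site in 5.14%, an E-box in 6.7% and a CRE in 1.45%, with medians of 9 CpG and 53.6% G+C. A match is a description of the letters in the window and not a binding site.

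Total counts ran from 22782536 to 31278750 per library. Levels are CPM, counts scaled to a common library size with TMM factors, given as mean ± SD over 3 mice, and compare groups for 1 gene. Of 12 fibroblast markers, 10 to 12 were above 1 CPM in each group, with a summed level of 34400 to 53300 CPM, as the label of embryonic fibroblasts says. Fn1 was the largest of them. At 100 μg/mL against untreated senescent MEFs, 9 of the 12 were higher and 3 lower, and 3 were called higher, against 1.1% of all tested genes. These were Col3a1 (2270 against 873 CPM), Dcn (81.6 against 16.2 CPM) and Lum (6.6 against 0.666 CPM). Vim, among the 3 lower, stood at 4230 against 7730 CPM (log2 fold change −0.87, edgeR adjusted p = 0.0245), which passed on p alone. At 300 μg/mL Col3a1 was the only marker of this list called (adjusted p = 0.0489). Dcn (adjusted p = 0.0822) and Lum (adjusted p = 0.0997) were not called at that dose. In control MEFs Dcn stood at 1.06 CPM and Lum at 0.061 CPM. Markers of other cell types also moved with treatment, and their part in the results was not tested. The 8 endothelial markers summed to 1.18 to 3.6 CPM without and 5.53 to 13.3 CPM with Fucoidan-FV (Cldn5 at 0 throughout), of which Tek went from 0.481 CPM in untreated senescent MEFs to 5.87 and 4.92 CPM with the doses, and the 10 macrophage markers to 3.2 to 16.1 and 3.98 to 18 CPM. The 8 epithelial markers, of which 2 passed the filter, went from 14.3 to 30.8 CPM in control and 7.03 to 16.9 CPM in untreated senescent MEFs to 1.79 to 4.3 CPM with Fucoidan-FV. Krt19 was the largest of them, with means of 25.4 and 10.2 CPM in control and untreated senescent MEFs and 1.63 and 1.62 CPM with the doses. The 8 neural markers, mostly Nes, went from 567 to 1030 CPM without to 219 to 272 CPM with Fucoidan-FV. The 8 muscle markers (Myf5 at 0) summed to 92.8 to 181 CPM in control and 135 to 344 CPM in untreated senescent MEFs. With the doses they summed to 91.4 to 172 and 65.1 to 130 CPM. Des had means of 142 CPM in untreated senescent MEFs and 84.8 and 61.8 CPM with the doses. Acta1 had means of 80.8 CPM and 38.5 and 30.5 CPM. Of the 3 muscle markers tested, 0 were called at either dose against untreated senescent MEFs. Within the neural list the directions differed: Nes was lower at 145 and 154 CPM with the doses against 823 CPM in untreated senescent MEFs, and Map2 higher at 19.1 and 21.8 CPM against 2.34 CPM. Libraries also differed on genes with 1 annotated transcript, which touches Sdc2 and Gpc4 directly and is taken up after the values.

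To compare levels between genes, the authors' TPM, a scaled transcript abundance per length, were used. In control MEFs the order of mean TPM was Sdc3 (163 ± 10.7) and Sdc1 (156 ± 22.7), whose values overlapped, then Sulf1 (118 ± 14.3), then Sdc4 (43.8 ± 18.1), Gpc4 (41.6 ± 26.8), Gpc1 (37.6 ± 6.5) and Sulf2 (35 ± 3.42), which overlapped with their neighbours. Sdc2 (18.8 ± 12.7) and Gpc6 (17.4 ± 1.85) followed, and Gpc3 was lowest (6.7 ± 1.17), below every value of Gpc6. Transmembrane syndecans thus headed the list in control MEFs. In untreated senescent MEFs Sulf1 (196 ± 60.4), Sdc1 (168 ± 9.64), Sdc3 (136 ± 83.2) and Sulf2 (111 ± 34.2) were at the top and overlapped with their neighbours, and Gpc3 (3.47 ± 2.41) was again below every value of Gpc6 (22.3 ± 14.4). With Fucoidan-FV, Sulf1 had the highest mean at 100 μg/mL (336 ± 116) and at 300 μg/mL (332 ± 56.9), and at the higher dose its values lay above all of those of Sdc1 (227 ± 4.26), next in order. Gpc3 remained last of the 10 at 25 ± 3.87 and 20.2 ± 9.95 TPM.

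Expressed as a share of the summed TPM of the 10 members, the syndecans took 59.9% ± 1.61 in control MEFs, 45.1% ± 1.56 in untreated senescent MEFs, and 35.7% ± 2.72 and 37.4% ± 2.11 at 100 and 300 μg/mL Fucoidan-FV. The Sulfs took 24.1% ± 3.69 in control MEFs and 37.1% ± 2.76 in untreated senescent MEFs, against 38.8% ± 11.5 and 42.9% ± 7.37 with the 2 doses. The glypicans took 16% ± 4.51, 17.8% ± 3.97, 25.5% ± 8.83 and 19.7% ± 6.9, values whose spread was mostly that of Gpc4. These shares are a description of composition and carry no test. A lower share of the syndecans was not a lower level. Their summed level was 585 ± 87.7, 590 ± 63.6, 686 ± 98.6 and 607 ± 55.8 CPM in the 4 groups, in the same order. That of the Sulfs was 509 ± 58.4, 914 ± 226, 1280 ± 471 and 1430 ± 302 CPM, and that of the glypicans 172 ± 69, 246 ± 63.8, 483 ± 159 and 355 ± 137 CPM. TPM also moves with the lengths assigned to all genes: Sdc1 had 168 TPM in untreated senescent MEFs and 227 TPM at 100 μg/mL, while its CPM was 306 ± 31.5 and 304 ± 26.7, so differences between groups were taken from CPM only. Per-length values of Sdc3 are the least firm among the members, since its effective length ran from 951 to 3927 bases between libraries.

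**Figure D1:**
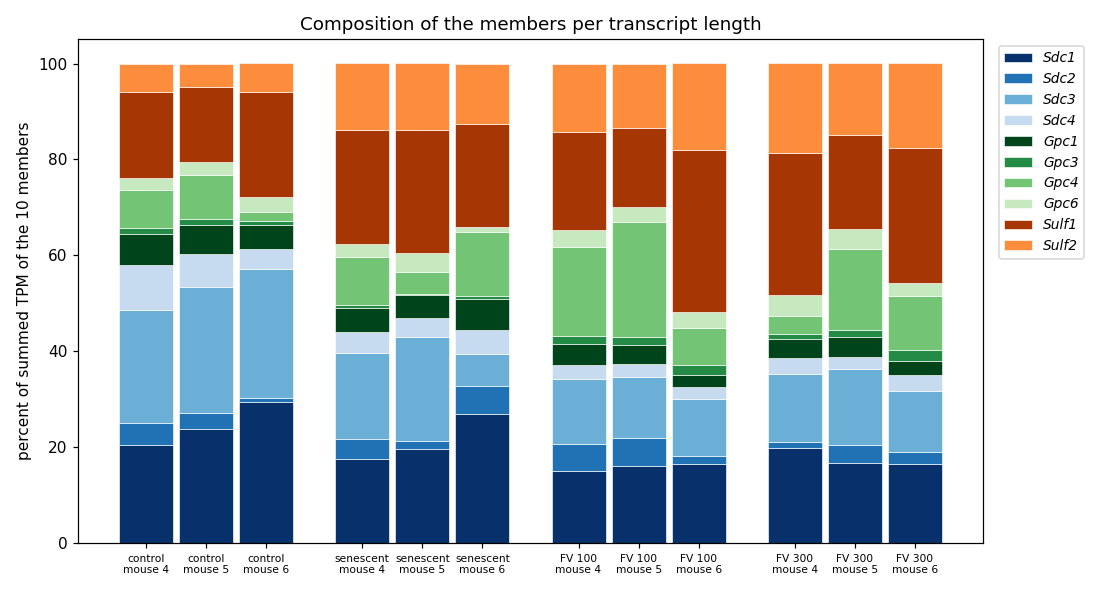
Percent of the summed TPM of the 10 members (vertical axis) in each of the 12 samples, 3 mice per group, with syndecans in blue, glypicans in green and Sulfs in orange. The blue part is 59.9% on average in control MEFs and 35.7% at 100 μg/mL Fucoidan-FV, and the orange part 24.1% and 38.8%. Shares are not levels: the summed syndecan level was 585 and 686 CPM in these groups.

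The questions were these of each member: whether it differed between senescent and control MEFs, whether it differed between Fucoidan-FV and untreated senescent MEFs, and whether the doses differed. A gene was called differentially expressed (DEG) when its adjusted p was under 0.05 and its log2 fold change exceeded 1 in size, the adjustment covering all 15034 genes. Between untreated senescent and control MEFs 1 of the 10 members, Sulf2, was a DEG, and it was higher, where 4.47% of all tested genes were higher and 3.95% lower DEGs. With Fucoidan-FV at 100 μg/mL, set against untreated senescent MEFs, 1 member, Gpc3, was a DEG and higher, where 1.1% of all genes were higher and 1.6% lower. With 300 μg/mL it was again Gpc3, where 0.752% of all genes were higher and 0.885% lower. The median log2 fold change of the 10 members was 0.28, 0.5 and 0.36 in these comparisons, against 0.07, −0.02 and 0 over all genes. Non-overlapping groups were seen for 2, 3 and 2 members, against 27.1%, 26.2% and 19.6% of all genes. The comparisons with Fucoidan-FV share the untreated senescent samples, so their values are given side by side and were not correlated.

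Sulf2 was higher in senescent MEFs. In control MEFs of mice 4, 5 and 6 it stood at 100, 90.8 and 106 CPM, in untreated senescent MEFs at 351, 334 and 244 CPM, at 100 μg/mL Fucoidan-FV at 400, 356 and 590 CPM, and at 300 μg/mL at 566, 417 and 555 CPM. The lowest senescent sample was above the highest control sample, and every treated sample was above every untreated senescent sample. From 99.2 ± 7.82 CPM in control to 310 ± 57.8 CPM in untreated senescent MEFs, Sulf2 rose 3.12-fold (log2 fold change 1.64, adjusted p = 0.000458, SE 0.22, higher in 3 of 3 mice), and this call held under all 25 alternatives, with log2 fold changes of 1.52 to 1.8. In bulk RNA, fewer cells of a type and less RNA per cell cannot be told apart. Against untreated senescent MEFs the log2 fold change of Sulf2 was 0.53 (adjusted p = 0.191, SE 0.22) at 100 μg/mL and 0.73 (adjusted p = 0.114, SE 0.22) at 300 μg/mL, higher in 3 of 3 mice at both doses, and neither passed the test. With the library score described below as a covariate, these values were 0.64 (adjusted p = 0.0483) and 0.7 (adjusted p = 0.0422), past the threshold on p but under that on fold change. The 95% confidence intervals, 0.06 to 1 and 0.26 to 1.2 without the covariate, lie above 0 before adjustment over genes and reach the size of a DEG.

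Sulf1, the other extracellular 6-O-endosulfatase, was the more abundant of the pair. It measured 402, 364 and 465 CPM in control mice 4, 5 and 6, 708, 696 and 410 CPM in untreated senescent MEFs, 709, 565 and 1220 CPM at 100 μg/mL, and 1040, 663 and 1040 CPM at 300 μg/mL. Senescent mouse 6 lay within the control values, and the treated groups overlapped with the untreated senescent group. Its log2 fold change was 0.56 (adjusted p = 0.264, SE 0.3) in untreated senescent against control MEFs, 0.46 (adjusted p = 0.423, SE 0.3) at 100 μg/mL and 0.6 (adjusted p = 0.363, SE 0.3) at 300 μg/mL against untreated senescent MEFs.

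**Figure D2:**
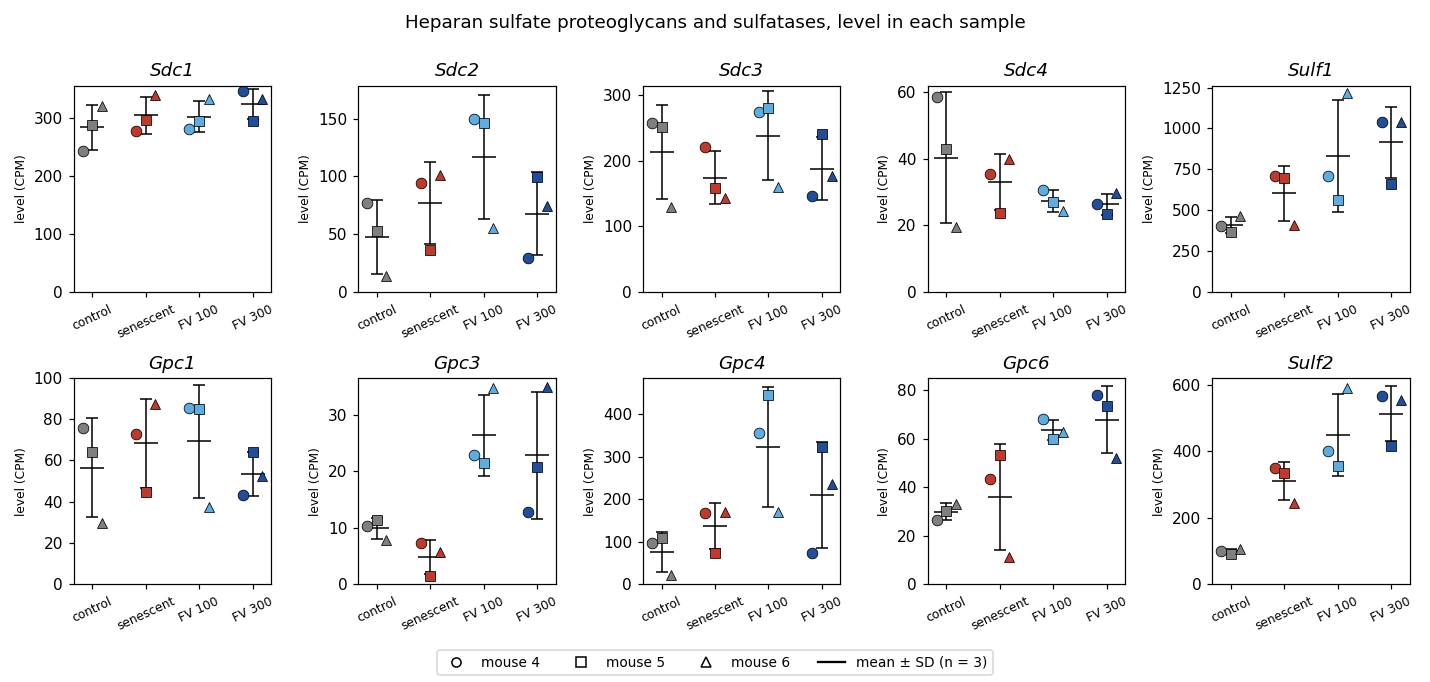
Level in CPM (vertical axis, linear from 0) of each of the 10 members in control, untreated senescent and Fucoidan-FV treated MEFs (100 and 300 μg/mL), with a symbol for each mouse and a bar for the mean ± SD (n = 3). Sulf2 steps up from 99.2 CPM in control to 310 CPM in senescent MEFs, and Gpc3 from 4.84 CPM in senescent to 26.4 and 22.8 CPM in treated MEFs.

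Gpc3 encodes a glypican that binds Wnt and Hedgehog ligands and restrains body growth in the embryo. It measured 10.4, 11.4 and 7.89 CPM in control mice 4, 5 and 6, 7.35, 1.51 and 5.67 CPM in untreated senescent MEFs, 22.9, 21.5 and 34.7 CPM at 100 μg/mL Fucoidan-FV, and 12.8, 20.8 and 34.9 CPM at 300 μg/mL. With libraries 5(1) and 5(2) summed, every treated sample was above every control and senescent sample, and every untreated senescent sample was below every control sample. Taken apart, library 5(1) stood at 16.2 CPM, above mouse 4 at 300 μg/mL, and library 5(2) at 5.13 CPM, below senescent mice 4 and 6, so the separation from control did not hold for these libraries. From 4.84 ± 3.01 to 26.4 ± 7.24 CPM, Gpc3 rose 5.42-fold at 100 μg/mL (log2 fold change 2.44, adjusted p = 0.0199, SE 0.51), and to 22.8 ± 11.2 CPM it rose 4.69-fold at 300 μg/mL (2.23, adjusted p = 0.0397, SE 0.51), higher in 3 of 3 mice at both doses. Between untreated senescent and control MEFs its log2 fold change was −1.03 (adjusted p = 0.211, SE 0.49). With the library score and the mouse as a block that value was −1.32 (adjusted p = 0.0332), which would be a call.

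The calls of Gpc3 were close to the threshold and depended on single samples. Without senescent mouse 6, or mouse 4, 5 or 6 at 100 μg/mL, the log2 fold change at that dose was 2.67, 2.53, 2.57 and 2.19, with adjusted p of 0.0543, 0.0558, 0.0514 and 0.0668. At 300 μg/mL the call was lost without control mouse 4 or 5, senescent mouse 5 or 6, mouse 4 or 5 at 100 μg/mL, or mouse 5 or 6 at 300 μg/mL, with log2 fold changes of 2.28, 2.28, 1.85, 2.39, 2.23, 2.23, 2.29 and 1.79 and adjusted p of 0.0571, 0.0656, 0.0538, 0.0931, 0.0655, 0.0598, 0.093 and 0.204. With the mouse as a block the values were 2.48 (adjusted p = 0.0326) at 100 μg/mL and 2.27 (adjusted p = 0.065) at 300 μg/mL. The size of the difference stayed between 2.14 and 3.02 at 100 μg/mL and between 1.79 and 2.74 at 300 μg/mL over the 25 alternatives. Libraries 5(1) and 5(2) of control mouse 5 held 460 and 121 counts of Gpc3, so libraries of 1 control mouse differed by a ratio of 0.317 in CPM.

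Gpc4, a glypican first described in the developing brain and kidney, measured 97.2, 109 and 22.2 CPM in control mice 4, 5 and 6, 168, 73.8 and 170 CPM in untreated senescent MEFs, 355, 445 and 169 CPM at 100 μg/mL, and 74.5, 322 and 235 CPM at 300 μg/mL. Values within a group spread widely and neighbouring groups overlapped. Its log2 fold change was 0.85 (adjusted p = 0.416, SE 0.59) in untreated senescent against control MEFs, and 1.24 (adjusted p = 0.268, SE 0.59) and 0.62 (adjusted p = 0.697, SE 0.59) at 100 and 300 μg/mL against untreated senescent MEFs. Without a filter beyond 1 count the value at 100 μg/mL was 1.34 (adjusted p = 0.000836), which would be a call.

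Gpc6, another glypican, measured 26.5, 30.4 and 33.2 CPM in control MEFs, 43.5, 53.4 and 11.4 CPM in untreated senescent MEFs, 68.1, 59.9 and 63 CPM at 100 μg/mL, and 78.1, 73.4 and 52.3 CPM at 300 μg/mL. Senescent mouse 6 was below all control values and the other senescent samples were above them, while all treated samples were above all control samples. The log2 fold change was 0.27 (adjusted p = 0.751, SE 0.4) in untreated senescent against control MEFs, and 0.82 (adjusted p = 0.272, SE 0.4) and 0.91 (adjusted p = 0.289, SE 0.4) with the doses against untreated senescent MEFs. With the library score and the mouse as a block the value at 100 μg/mL was 1.31 (adjusted p = 0.0283), which would be a call.

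Gpc1, the glypican most widely expressed in adult tissues, measured 75.5, 64.2 and 29.6 CPM in control MEFs, 72.7, 44.9 and 87.3 CPM in untreated senescent MEFs, 85.4, 84.7 and 37.5 CPM at 100 μg/mL, and 43.2, 64.3 and 52.7 CPM at 300 μg/mL. All groups overlapped, with log2 fold changes of 0.28 (adjusted p = 0.724, SE 0.38), 0.02 (adjusted p = 0.984, SE 0.38) and −0.36 (adjusted p = 0.735, SE 0.38) in the 3 comparisons. Of its exonic bases 17.75% overlap Ankmy1 on the opposite strand, and how the counting treated strand is not given in the sources used here.

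Sdc1, the syndecan best known from epithelia and plasma cells, had the smallest SE of the 10 members. It measured 244, 289 and 321 CPM in control mice 4, 5 and 6, 279, 297 and 340 CPM in untreated senescent MEFs, 281, 296 and 333 CPM at 100 μg/mL, and 347, 296 and 333 CPM at 300 μg/mL. All groups overlapped, and the log2 fold changes were 0.1, −0.01 and 0.09 (SE 0.16 each, adjusted p = 0.77, 0.982 and 0.863). Their 95% confidence intervals, −0.25 to 0.45, −0.36 to 0.34 and −0.26 to 0.44, lie within the fold threshold of a DEG on either side.

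Sdc3, known as the neural syndecan, measured 258, 251 and 130 CPM in control MEFs, 220, 159 and 143 CPM in untreated senescent MEFs, 274, 280 and 160 CPM at 100 μg/mL, and 146, 240 and 176 CPM at 300 μg/mL. The groups overlapped, with log2 fold changes of −0.29 (adjusted p = 0.62, SE 0.3), 0.45 (adjusted p = 0.443, SE 0.3) and 0.11 (adjusted p = 0.918, SE 0.3). Sdc4, a component of focal adhesions, measured 58.6, 42.8 and 19.5 CPM in control MEFs, 35.4, 23.6 and 39.8 CPM in untreated senescent MEFs, 30.7, 27 and 24.2 CPM at 100 μg/mL, and 26.3, 23.3 and 29.6 CPM at 300 μg/mL. Its groups also overlapped, with log2 fold changes of −0.29 (adjusted p = 0.659, SE 0.33), −0.27 (adjusted p = 0.713, SE 0.33) and −0.32 (adjusted p = 0.734, SE 0.33). Sdc2, the syndecan typical of mesenchymal cells, measured 76.5, 52.8 and 13.6 CPM in control MEFs, 93.9, 36.4 and 101 CPM in untreated senescent MEFs, 150, 146 and 55.1 CPM at 100 μg/mL, and 29.2, 99.7 and 74.2 CPM at 300 μg/mL. Each group of Sdc2 held samples that differed severalfold, and its log2 fold changes were 0.69 (adjusted p = 0.534, SE 0.6), 0.6 (adjusted p = 0.633, SE 0.59) and −0.19 (adjusted p = 0.931, SE 0.59).

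The spread of Sdc2 and Gpc4 followed a difference between libraries in a class of genes. The labels do not say whether 5(1) and 5(2) are repeat libraries of the same RNA or separate cultures. The cause of the difference was not tested. Both genes have 1 annotated transcript, whereas the other members have 2 to 10. In the pair of libraries from control mouse 5, the ratio of 5(2) to 5(1) in CPM was 6.57 for Gpc4 (861 and 4689 counts in 5(1) and 5(2)) and 5.23 for Sdc2 (504 and 2187 counts). Over all 993 genes with 1 transcript the median ratio was 4.73, and over 10851 other genes it was 0.937, so libraries of the same mouse differed on this class of genes as a whole. Of the members with several transcripts, Sdc3 (2.5), Gpc1 (2.45) and Sdc4 (1.47) had ratios between, and Gpc6 (1.08), Sdc1 (1.06), Sulf2 (1) and Sulf1 (0.864) had ratios close to 1. Gpc3 (0.317) differed in the direction opposite to that of the genes with 1 transcript. A library score was therefore computed for each sample as the median log2 deviation of these 993 genes from their mean over the 12 samples, and fitted as a covariate, a choice made after seeing the data. Its slope was 1.19 for Sdc2 (adjusted p = 1.77e-06), 1.17 for Gpc4 (adjusted p = 9.97e-06), 0.65 for Gpc1 (adjusted p = 0.000395), 0.43 for Sdc3 (adjusted p = 0.0136) and 0.43 for Sdc4 (adjusted p = 0.032), in log2 per unit of score. Sdc2 and Gpc4 belong to the class of genes from which the score was made. The median slope was 1.14 over that class and −0.08 over the other genes. The slopes of Sdc2 and Gpc4 therefore restate their class, and their p-values are no separate result on these members. The slopes of Gpc3 (0.4, adjusted p = 0.276), Sulf1 (−0.34, adjusted p = 0.0604), Sulf2 (−0.22, adjusted p = 0.101), Gpc6 (−0.3, adjusted p = 0.3) and Sdc1 (−0.1, adjusted p = 0.279) did not pass the test.

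**Figure D3:**
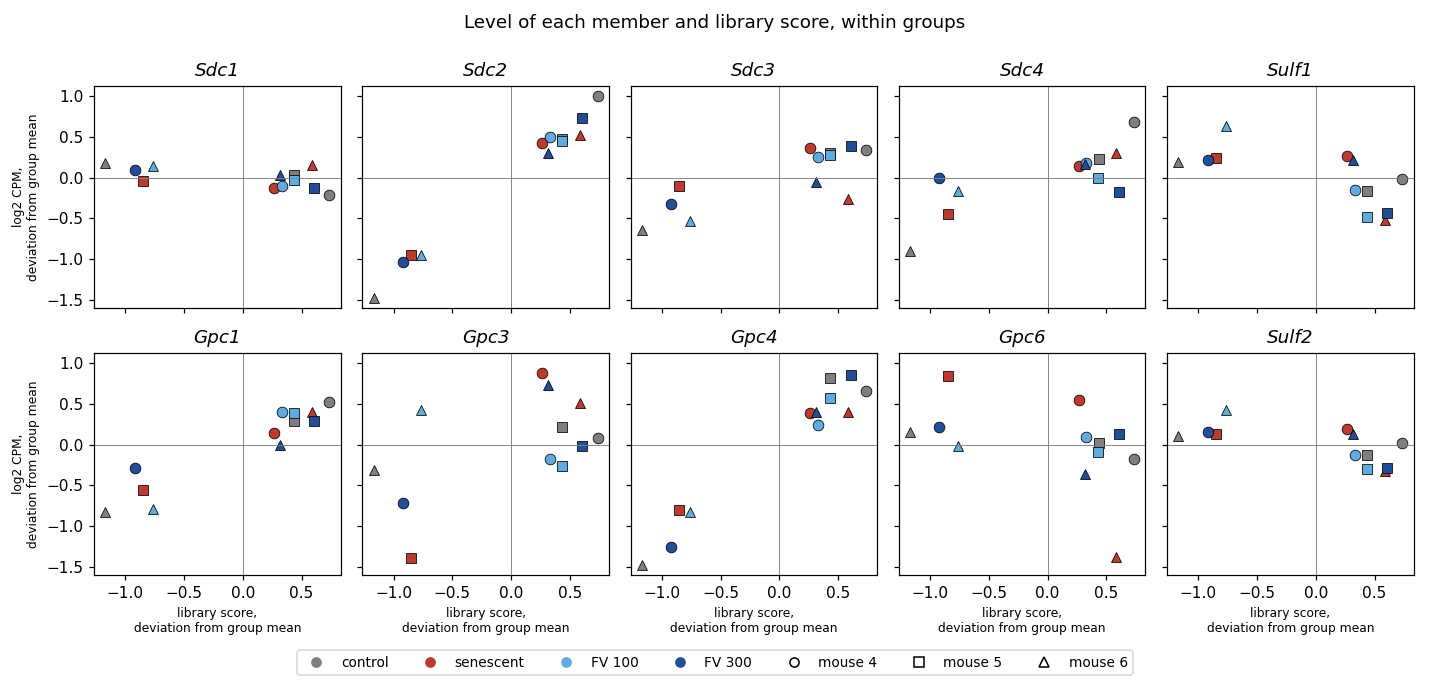
Log2 CPM of each member (vertical axis) against the library score (horizontal axis), both as deviations from the mean of the sample's group, for the 12 samples, coloured by group with a symbol for each mouse. Points of Sdc2 and Gpc4 rise along the score with fitted slopes of 1.19 and 1.17, and those of Sdc1 and Sulf2 stay near 0 or fall slightly.

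With the score in the fit, the intervals of Sdc2 and Gpc4 narrowed. The score was made from their class of genes, so the narrowing is no separate result on these members. Intervals and p-values with the score also take it as known without error. Gpc4 was then 0.82 higher on the log2 scale in untreated senescent than in control MEFs (SE 0.18, 95% interval 0.44 to 1.21, adjusted p = 0.00699) and Sdc2 0.65 higher (SE 0.13, 0.37 to 0.94, adjusted p = 0.00454), both past the threshold on p but under that on fold change. For Fucoidan-FV against untreated senescent MEFs, Gpc4 stood at 0.55 (adjusted p = 0.0849, SE 0.18) and 0.64 (adjusted p = 0.0585, SE 0.17), and Sdc2 at −0.08 and −0.06 (SE 0.13 each, adjusted p = 0.75 and 0.825). The log2 fold change of 1.24 for Gpc4 at 100 μg/mL thus became 0.55 with the score, and the 0.6 of Sdc2 became −0.08. The score was 0.854, 0.956 and −0.24 in mice 4, 5 and 6 at 100 μg/mL. In untreated senescent MEFs it was 0.219, −0.895 and 0.542. Score and dose therefore differed together in part, and their shares in these changes cannot be told apart. Gpc1 at 100 μg/mL turned from 0.02 to −0.38 (adjusted p = 0.2, SE 0.18). The values of Sulf2 against control (1.68, adjusted p = 0.00012, SE 0.18) and of Gpc3 at 100 μg/mL (2.36, adjusted p = 0.0138, SE 0.47) and 300 μg/mL (2.32, adjusted p = 0.0181, SE 0.47) stayed calls. The slope of Gpc3, 0.4, runs against its ratio of 0.317 between libraries 5(2) and 5(1), so the score does not describe that difference.

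**Figure D4:**
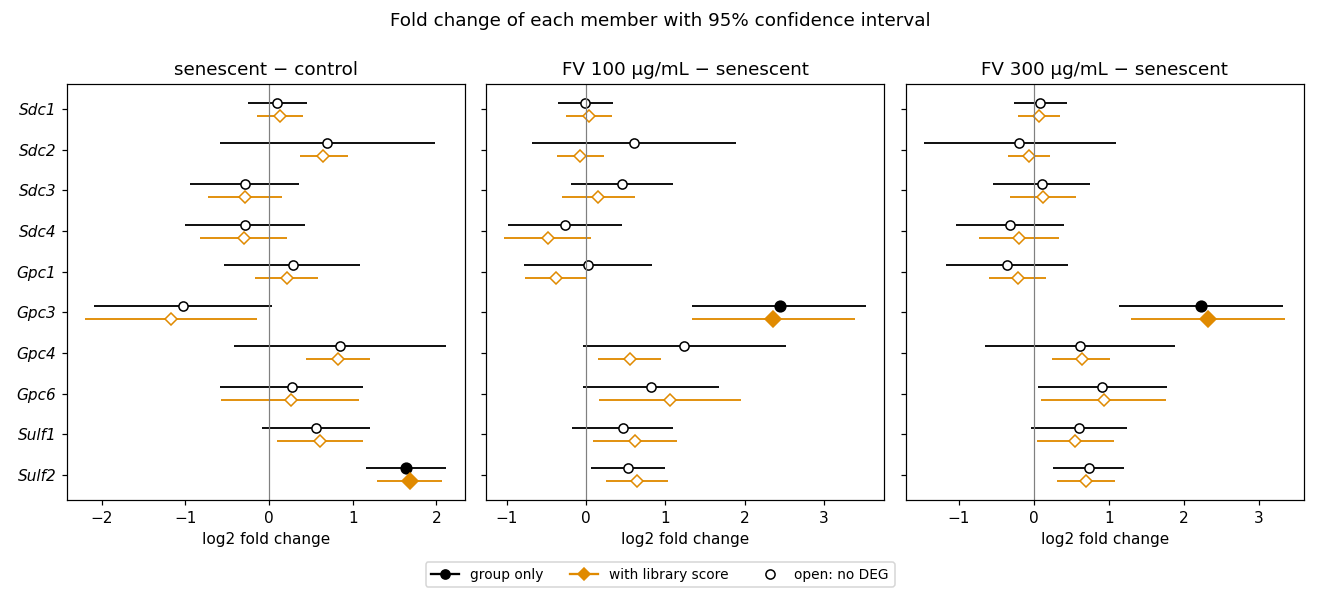
Log2 fold change of each member (horizontal axis) with its 95% confidence interval, without (black) and with (orange) the library score as covariate, for untreated senescent minus control MEFs and for each Fucoidan-FV dose minus untreated senescent MEFs. Filled symbols are DEGs: Sulf2 in the left panel (1.64 and 1.68) and Gpc3 in the others (2.44 and 2.36, and 2.23 and 2.32), while the intervals of Sdc2 and Gpc4 shorten with the score.

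The doses were compared directly. Between 300 and 100 μg/mL Fucoidan-FV edgeR called 0 of the 10 members, where 0.00665% of all tested genes were DEGs in either direction. At an unadjusted p under 0.05 there were 0 members, and DESeq2 also called 0. Over all genes, 94 fell under that unadjusted level and each tool called 1 DEG. The log2 difference of Gpc3, 300 minus 100 μg/mL, was −0.21 (95% interval −1.24 to 0.83), that of Sulf2 0.19 (−0.28 to 0.66), that of Sulf1 0.14 (−0.5 to 0.77) and that of Gpc6 0.09 (−0.75 to 0.94). The interval of Gpc3 therefore includes differences of more than the DEG threshold, that of Sulf2 does not.

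Treated senescent MEFs were also set beside control MEFs. At 100 μg/mL 4 of the 10 members were DEGs and higher, where 10.3% of all tested genes were higher and 9.37% lower, and at 300 μg/mL 3 were, where 9.87% were higher and 8.11% lower. Values did not overlap between treated and control MEFs for 5 members at 100 μg/mL and 4 at 300 μg/mL, against 48.3% and 43.3% of all genes. Sulf2 was 4.52-fold higher than in control MEFs at 100 μg/mL (log2 fold change 2.18, adjusted p = 2.75e-05, SE 0.23) and 5.17-fold higher at 300 μg/mL (2.37, adjusted p = 1.85e-05, SE 0.23), and Sulf1 was 2.03-fold (1.02, adjusted p = 0.0221, SE 0.3) and 2.23-fold higher (1.16, adjusted p = 0.0126, SE 0.3). Both sulfatases were thus above control at both doses, Sulf1 with the help of mouse 6: without it the log2 fold change of Sulf1 was 0.63 (adjusted p = 0.113) at 100 μg/mL and 1.06 (adjusted p = 0.0504) at 300 μg/mL. Gpc4 was a DEG at 100 μg/mL (2.09, adjusted p = 0.0221, SE 0.61) and stood at 1.47 (adjusted p = 0.0923, SE 0.6) at 300 μg/mL. With the library score, which was made from its own class of genes, Gpc4 was a DEG at both doses (1.37, adjusted p = 0.000279, and 1.46, adjusted p = 0.000119). Without the score, the Gpc4 call at 100 μg/mL was lost without control mouse 6 (1.86, adjusted p = 0.0559) or mouse 4 (2.01, adjusted p = 0.0567) or 5 (1.78, adjusted p = 0.078) at that dose, and with library 5(2) alone for control mouse 5 (1.61, adjusted p = 0.106), and at 300 μg/mL it was gained without mouse 4 at that dose (1.87, adjusted p = 0.0383).

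Gpc6 and Gpc3 lay near the threshold against control MEFs. Gpc6 stood at 1.08 (adjusted p = 0.0603, SE 0.4) at 100 μg/mL and was a DEG at 300 μg/mL (1.18, adjusted p = 0.0465, SE 0.4), a call lost under 13 of 25 alternatives, among them the mouse as a block (1.12, adjusted p = 0.0639). It was lost without any 1 control sample, senescent mouse 4, or any 1 sample of either dose, with log2 fold changes of 1.06 to 1.34 and adjusted p of 0.0537 to 0.128. At 100 μg/mL Gpc6 became a DEG under 13 of 25 alternatives, and with the library score it was a DEG at both doses (1.32, adjusted p = 0.0267, and 1.19, adjusted p = 0.0295). Among those 13, the call was gained without senescent mouse 4, 5 or 6 (1.24 in each, adjusted p = 0.0497, 0.0331 and 0.000416). Gpc3 was a DEG at 100 μg/mL (1.41, adjusted p = 0.0481, SE 0.49), a call lost under 12 of 25 alternatives, 7 of which left out 1 sample (any control sample, any sample at 100 μg/mL, or mouse 5 at 300 μg/mL), with log2 fold changes of 1.16 to 1.66 and adjusted p of 0.065 to 0.144 in those 7. At 300 μg/mL Gpc3 stood at 1.2 (adjusted p = 0.0909, SE 0.49), and at 1.27 (adjusted p = 0.0203) without senescent mouse 5. With the mouse as a block, 2 members remained DEGs at 100 μg/mL, Sulf2 and Gpc4, since Gpc3 (1.33, adjusted p = 0.0752) was no longer past the threshold on p and Sulf1 (0.99, adjusted p = 0.0334) was under that on fold change.

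The rest of the heparan sulfate system was read from 6 written lists with 70 genes, of which 64 were tested: other core proteins, linker and chain synthesis, chain modification, precursor supply, breakdown, and shedding and partners. Between untreated senescent and control MEFs 4 of the 64 (6.25%) were DEGs and higher, near the 4.47% of all tested genes, and the median over the 64 was 0.17 in log2 fold change. Of the DEGs, 3 are lysosomal enzymes of the breakdown list. The 11 tested genes of that list had a median of 0.69 against 0.07 over all genes. The list also holds genes other than such enzymes, among them Sumf1, which itself stood at 0.69, and Sumf2 at −0.3. Arsg, a sulfatase that acts on 3-O-sulfated glucosamine, measured 2.42, 3.28 and 5.64 CPM in control and 14.1, 14.7 and 6.42 CPM in untreated senescent MEFs (log2 fold change 1.64, adjusted p = 0.0137, SE 0.38). Naglu, the lysosomal α-N-acetylglucosaminidase, measured 12.2, 13.1 and 9.82 CPM against 29, 21.3 and 35.5 CPM (1.28, adjusted p = 0.00634, SE 0.26), and Idua, the α-L-iduronidase, 10.5, 16.4 and 19.1 CPM against 32, 44.3 and 30.4 CPM (1.21, adjusted p = 0.00724, SE 0.25). Groups did not overlap for any of these enzymes of chain breakdown, which were named because they were called on the same values. Over the 11 tested genes of the list the groups did not overlap for 6, against 27.1% of all genes. Of the same list, Sgsh (0.95, adjusted p = 0.018), also a lysosomal sulfatase, passed on p alone, whereas Hpse, the heparanase that cuts chains outside the cell, stood at −0.51 (adjusted p = 0.671) at 1.17 ± 0.284 CPM in control and 0.821 ± 0.275 CPM in untreated senescent MEFs.

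The remaining DEG, Hs3st1, adds the rare 3-O-sulfate to the chain. Its counts were 13, 3 and 0 in control mice 4, 5 and 6 and 90, 112 and 61 in untreated senescent MEFs (log2 fold change 4.02, adjusted p = 0.0264, SE 1.06), all at or under 4.83 CPM. Calls in these lists rested in part on few samples and on the spread over all groups. With only the 2 groups compared, Arsg (1.63, adjusted p = 0.116), Idua (1.2, adjusted p = 0.0734) and Hs3st1 (4.03, adjusted p = 0.103) were not called. Naglu kept its call under all 25 alternatives. Arsg was lost without mouse 4 (1.39, adjusted p = 0.0572) or 5 (1.53, adjusted p = 0.0571) of the control group or mouse 4 of the senescent group (1.45, adjusted p = 0.0514), Idua without control mouse 4 (0.99, adjusted p = 0.021), and Hs3st1 without mouse 5 of the control group (3.52, adjusted p = 0.097) or senescent mouse 4 (4.08, adjusted p = 0.0575) or 5 (3.65, adjusted p = 0.0674).

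With Fucoidan-FV against untreated senescent MEFs edgeR and DESeq2 each called 0 of the 64 genes at either dose. At an unadjusted p under 0.05 there were 8 genes (12.5%) at 100 μg/mL and 5 (7.81%) at 300 μg/mL, against 19.8% and 15.3% of all genes, and the medians were 0.15 and 0.12. Of chain synthesis and modification, Ext1, a subunit of the copolymerase, stood at −0.04 (adjusted p = 0.924) and Ndst1, an N-deacetylase and N-sulfotransferase, at 0.18 (adjusted p = 0.819) at 100 μg/mL. Ext2, the other subunit, was lower at that dose, with 135 ± 13 against 179 ± 21.9 CPM and no overlap. Its log2 fold change was −0.41 (unadjusted p = 0.0283, adjusted p = 0.19), which was not a call. Ugdh, which makes the UDP-glucuronate used for the chains (−0.86, adjusted p = 0.0384), and Pxylp1, a phosphatase of the linker xylose (−0.97, adjusted p = 0.0424), passed on p alone at 100 μg/mL. Against control MEFs 9 of the 64 genes (14.1%) were higher and 2 (3.12%) lower DEGs at 100 μg/mL, where 10.3% of all genes were higher and 9.37% lower. The median over the 64 was then 0.34. At 300 μg/mL 7 (10.9%) were higher DEGs, close to the 9.87% of all genes, with a median of 0.36. Of the 11 tested breakdown genes, 5 (45.5%) were higher DEGs at each dose, among them Sumf1 at 100 μg/mL (1.3, adjusted p = 0.000894).

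The sister pathway, chondroitin and dermatan sulfate, served as a comparison, with 15 of 16 enzymes tested. Csgalnact1, which starts the chondroitin chain on the linker shared with heparan sulfate, measured 66.1, 67.3 and 21.8 CPM in untreated senescent MEFs, 199, 189 and 267 CPM at 100 μg/mL and 226, 185 and 224 CPM at 300 μg/mL. Every treated sample was above every untreated one, with log2 fold changes of 2.08 (adjusted p = 0.00802, SE 0.36) and 2.03 (adjusted p = 0.0116, SE 0.36). Without mouse 6 at 300 μg/mL the latter was 1.99 (adjusted p = 0.0604), and with only the 2 groups compared 2.04 (adjusted p = 0.0534). Chst15, which adds a second sulfate to N-acetylgalactosamine, went from 12.4, 16.9 and 11.8 CPM to 30.7, 31.8 and 42.9 CPM at 300 μg/mL (1.36, adjusted p = 0.0332, SE 0.3), a call lost without any 1 sample at that dose, mouse 4 or 6 of the untreated senescent group, or mouse 4 or 5 at 100 μg/mL, with log2 fold changes of 1.2 to 1.45 and adjusted p of 0.0531 to 0.189, and also with the mouse as a block (1.37, adjusted p = 0.0555). Ust, a uronyl 2-O-sulfotransferase, fell between control and untreated senescent MEFs, from 37.6, 53.2 and 56.4 CPM to 27.5, 27.7 and 16 CPM (−1.05, adjusted p = 0.028, SE 0.28), a call lost when mouse 5 (−0.99, adjusted p = 0.0764) or 6 (−0.92, adjusted p = 0.0714) of the control group was left out, or mouse 6 of the senescent group (−0.83, adjusted p = 0.0419). With only the 2 groups compared, Chst15 (1.38, adjusted p = 0.0643) and Ust (−1.05, adjusted p = 0.103) were not called.

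**Figure D5:**
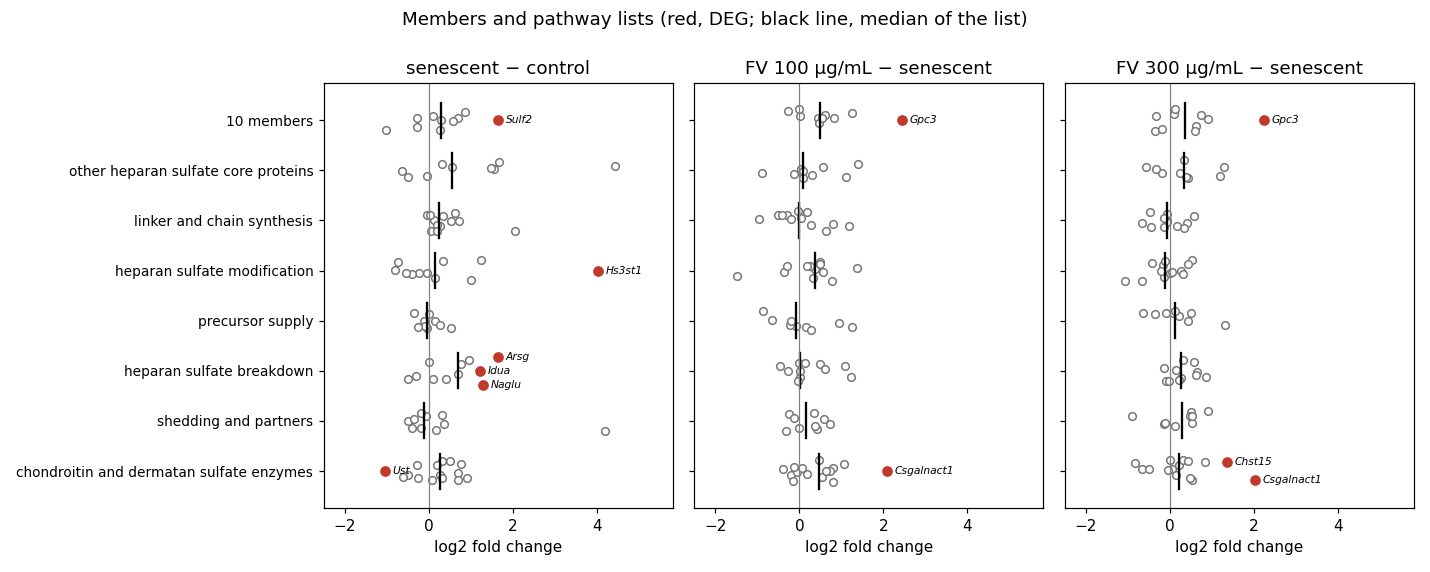
Log2 fold change (horizontal axis) of each tested gene of the 10 members, the heparan sulfate lists and the chondroitin and dermatan sulfate enzymes, for untreated senescent minus control MEFs and for each Fucoidan-FV dose minus untreated senescent MEFs, with DEGs in red and the median of each list as a black line. The breakdown list is centred at 0.69 in senescent against control MEFs and at 0.02 and 0.26 with the doses.

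For the members that were DEGs between senescent and control MEFs or with Fucoidan-FV in senescent MEFs, the genes with the most similar levels were found by Pearson's correlation of log2 CPM over the 12 samples, among 10087 genes with a mean of at least 5 CPM. Sulf2 was most like Reck, a membrane-bound inhibitor of metalloproteinases (r = 0.985, Spearman's rho = 0.979), and Itgbl1, which encodes a secreted protein with integrin-like EGF repeats (r = 0.985, rho = 0.965). Gpc3 was most like Lrp4, a receptor of the LDL receptor family (r = 0.908, rho = 0.944), and Fbn2, a fibrillin of matrix microfibrils (r = 0.89, rho = 0.944). These are descriptions over 12 samples that share groups, mice and library properties.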

How the data were processed

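RNA of 13 libraries was sequenced after a stranded total RNA preparation. Per the labels, the authors used FastQC 0.12.1, Trimmomatic, STAR 2.7.11b and RSEM 1.3.1 on GRCm39 to make, per gene, the expected counts (not normalized), TPM (normalized for length and library size) and effective lengths that they deposited. RSEM divides a read among the transcripts it matches, which can move counts between overlapping genes, and the strand setting of this step is not given in the sources used here. A joint table of expected counts for 27297 genes differed from the single libraries by at most 0.

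Expected counts were rounded, libraries 5(1) and 5(2) summed, and genes kept by filterByExpr (minimum count 10, minimum total 15). Tests used edgeR 4.0.16 in R 4.3.3: TMM factors, a quasi-likelihood fit of all 4 groups, Benjamini-Hochberg adjustment over 15034 genes, with the authors' thresholds for DEGs. Alternatives tried were RLE factors, DESeq2 1.42.0, calls without the fold threshold, no filter beyond 1 count, at least 10 counts in every sample, the 2 groups alone, libraries 5(1) and 5(2) separate or alone, the mouse as a block, an offset for single-transcript sequence, the library score, and each sample left out. TPM served levels between genes only. Figures were drawn with matplotlib 3.10.9.

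Same-numbered samples come from the same mouse by their titles, which gives the pairing. As a check, deviations from the group mean were correlated within the 18 same-numbered pairs (median −0.037, range −0.33 to 0.6, 8 above 0.1).

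The members and lists were chosen with earlier results of these data known. All members were named, and of the other lists the DEGs of the senescent against control and Fucoidan-FV against senescent comparisons (at most 4 per list and comparison). Ext1, Ext2, Ndst1, Hpse, Sgsh, Ugdh, Pxylp1, Sumf1 and Sumf2 were named after their values were seen. Upstream sequences came from the GRCm39 genome with GENCODE gene starts, an annotation that may differ from the authors' release. A result on a withheld item is not reported here.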

Additional observations from a re-analysis of the deposited data

How the results depend on the processing

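The 60 member results were recomputed under 25 alternatives each: of these 1500 values, 1332 kept direction and side of the threshold, 51 lost a call, 31 gained one and 86 changed sign without a call in either fit. Sulf2 in senescent against control MEFs kept its call throughout.

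Counts of member DEGs moved as follows. With the library score and the mouse as a block they were 2 for senescent against control MEFs, 2 at 100 μg/mL against senescent MEFs and 5 at 300 μg/mL against control. Without a filter beyond 1 count they were 2 at 100 μg/mL against senescent MEFs and 5 at 300 μg/mL against control, where DESeq2 also called 5. With only the 2 groups compared they were 0 at either dose against senescent MEFs. With the mouse as a block (replicate block) they were 0 at 300 μg/mL against senescent MEFs and 2 at 100 μg/mL against control, and 0 at 300 μg/mL also with block and offset, and with libraries 5(1) and 5(2) separate or either alone. The block alone changed no call of a named gene other than those given with the results. Leaving out 1 sample gave 0 to 1 at either dose against senescent MEFs, 2 to 5 at 100 μg/mL and 1 to 4 at 300 μg/mL against control.

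The changes of sign were these, in log2. With the score, and with score and block in that order, Sdc1 was 0.04 and 0.03, Sdc2 −0.08 and −0.06 and Gpc1 −0.38 and −0.38 at 100 μg/mL against senescent MEFs. Between doses Sdc2 was 0.02 and 0.00, Sdc4 0.29 and 0.26, Gpc1 0.17 and 0.14, Gpc4 0.09 and 0.06, Gpc6 −0.13 and −0.24 and Sulf1 −0.07 and −0.05, and Gpc3 was 0.11 with score and block. At 100 μg/mL against control Sdc3 was −0.14 and −0.08 and Gpc1 −0.17 and −0.16. With the offset, and with offset and block, Gpc1 was −0.37 and −0.39 and Sdc3 0.00 with the offset alone at 100 μg/mL against senescent MEFs. Between doses Sdc3 was 0.08 and 0.08, Sdc4 0.11 and 0.10, Gpc1 0.05 and 0.06 and Gpc6 −0.05 and −0.08. Against control Sdc3 was −0.22 and −0.23 and Gpc1 −0.02 and −0.03 at 100 μg/mL, and Gpc1 0.03 and 0.03 at 300 μg/mL. Sdc1 at 100 μg/mL against senescent MEFs, −0.01 in the report, was 0.08 with DESeq2, with RLE factors and with the 2 groups alone, 0.07 without a filter and 0.09 with the strict filter, and Gpc1 was −0.08 with the block. Against control, Sdc3 at 100 μg/mL was −0.07 with library 5(2) alone, and at 300 μg/mL Sdc3 was 0.07 and Gpc1 0.16 with library 5(1) alone.

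Leaving out 1 sample, the values that changed sign ran, for senescent against control MEFs, from −0.01 to 0.21 for Sdc1, −0.61 to 0.08 for Sdc4, −0.02 to 0.54 for Gpc1 and −0.1 to 0.69 for Gpc6. At 100 μg/mL against senescent MEFs they ran from −0.08 to 0.22 for Sdc1, −0.37 to 0.04 for Sdc4 and −0.16 to 0.41 for Gpc1, and at 300 μg/mL from −0.57 to 0.17 for Sdc2 and −0.11 to 0.4 for Sdc3. Between doses they ran from −0.16 to 0.05 for Sdc4, −0.65 to 0.08 for Gpc3, −0.02 to 0.25 for Gpc6 and −0.08 to 0.53 for Sulf1, and at 300 μg/mL against control from −0.4 to 0.04 for Sdc3 and −0.31 to 0.25 for Gpc1. The cause of these moves was not tested.

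The share of Sdc3 by TPM was 25.5%, 15.5%, 12.7% and 14.2% in control, untreated senescent, 100 μg/mL and 300 μg/mL MEFs, and by CPM per kb of effective length 21.9%, 14.4%, 14.4% and 12%, so the order of the doses turned round. Without the library score the SEs of Sdc2 and Gpc4 were 0.59 to 0.61, and log2 fold changes of up to 1.3 and 1.47 did not pass the test.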
